A study of Mus musculus with 6 samples.

Results

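The genes described here are 10 genes of the response to low oxygen, among them erythropoietin, in the kidneys of mice with and without Selenbp1. They are Epo, Hif1a, Epas1, Vegfa, Egln1, Egln2, Egln3, Vhl, Ankrd37, and Bnip3. Their members on the array were chosen by name alone, as every non-control probe whose gene name in the scanner output is 1 of these symbols. This gave 17 probes of 56605, for 10 of 37325 named genes, and all 17 passed the filter on detection. That filter takes a spot that differs from its background in either direction, so passing it does not mean detected expression. The accession of 15 of the 17 probes was found in the RefSeq table used here, and none of them named another gene.

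Total RNA of the left kidney was measured on 6 one-color (Cy3) Agilent arrays, 1 per mouse. The 3 WT samples (replicates 2, 3, and 4) and the 3 Selenbp1-KO samples (replicates 1, 2, and 3) came from C57BL/6J males 8 weeks of age, and every mouse had been fasted for 20 h before the kidney was taken. The Selenbp1-KO mice carry a deletion of Selenbp1, a selenium-binding protein that is abundant in the kidney, and the WT mice do not. No fed mice were arrayed, so each value below belongs to the fasted kidney, and kidney cell types were not separated.

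Cells sense oxygen through a short protein pathway. In the presence of oxygen, prolyl hydroxylases encoded by Egln1, Egln2, and Egln3 modify the alpha subunits of the hypoxia-inducible factors, HIF-1α (Hif1a) and HIF-2α (Epas1), and the product of Vhl then marks them for destruction. When oxygen is low the alpha subunits persist, pair with a constitutive beta subunit, and bind short DNA motifs near target genes. In the adult, Epo is made mainly by fibroblast-like interstitial cells of the kidney under HIF-2α, and its hormone drives the formation of red blood cells. Vegfa, Egln3, Ankrd37, and Bnip3 are well-known HIF targets. Because the alpha subunits are regulated mostly at the protein level, an array of mRNA does not measure their activity.

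Epo is the 1 gene of the 10 that was called, and 2 probes target it. Both are shown because the 2 oligonucleotides gave different readings. The first lies at mm9 chr5:137925734-137925793 and the second at chr5:137926263-137926322, both on the minus strand. Exon and UTR positions of the probes are not given, as no mm9 annotation was used here.
Epo A_51_P143659: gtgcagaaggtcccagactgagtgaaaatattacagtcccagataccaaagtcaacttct
Epo A_55_P2745732: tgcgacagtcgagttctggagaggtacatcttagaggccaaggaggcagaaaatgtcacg

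The promoters of 4 HIF targets are shown so that matches to the core HIF motif can be set beside their signal. Each is the 250 bases before a RefSeq start site, and capitals mark ACGTG or GCGTG, the core letters of the hypoxia response element, on either strand. On the strand printed, the reverse match reads CACGT or CACGC, and CACGTG holds ACGTG on both strands.
Epo (GRCm38.p6 chr5:137485817-137486066, minus strand): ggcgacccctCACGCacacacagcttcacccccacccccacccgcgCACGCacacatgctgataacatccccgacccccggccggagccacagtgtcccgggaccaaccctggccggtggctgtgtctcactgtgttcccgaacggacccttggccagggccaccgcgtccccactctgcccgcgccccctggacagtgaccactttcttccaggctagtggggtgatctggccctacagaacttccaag
Egln3 (GRCm38.p6 chr12:54203875-54204124, minus strand): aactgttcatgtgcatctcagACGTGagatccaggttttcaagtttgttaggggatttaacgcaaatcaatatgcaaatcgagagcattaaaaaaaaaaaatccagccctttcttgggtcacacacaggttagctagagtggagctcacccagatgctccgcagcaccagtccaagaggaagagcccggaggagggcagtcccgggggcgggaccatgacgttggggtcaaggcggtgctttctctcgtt
Bnip3 (GRCm38.p6 chr7:138909507-138909756, minus strand): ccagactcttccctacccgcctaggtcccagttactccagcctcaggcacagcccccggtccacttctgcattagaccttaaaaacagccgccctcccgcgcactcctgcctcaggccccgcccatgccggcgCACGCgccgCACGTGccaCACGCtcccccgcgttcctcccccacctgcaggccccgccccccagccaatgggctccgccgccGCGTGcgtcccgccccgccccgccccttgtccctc
Ankrd37 (GRCm38.p6 chr8:45999851-46000100, minus strand): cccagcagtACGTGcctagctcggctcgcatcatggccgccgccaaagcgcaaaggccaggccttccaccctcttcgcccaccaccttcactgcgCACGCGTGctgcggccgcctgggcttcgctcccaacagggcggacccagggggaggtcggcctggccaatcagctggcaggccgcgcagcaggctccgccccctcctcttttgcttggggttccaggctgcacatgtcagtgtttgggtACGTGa
These stretches held 2 matches for Epo, 1 for Egln3, 5 for Bnip3, and 4 for Ankrd37. Among stretches not shown, those of Vegfa, another HIF target, held 2 and 0, and those of Egln2 held 1 and 4. Egln1 had 2, Hif1a 3, and Vhl 0. Over windows from 250 bases before to 50 bases after the start, 9 of the 10 genes (not Epas1) had 11 windows in the table, and 9 of these windows, from 8 genes, held either motif. Of all 32851 promoter windows of the same length, 43.77% held either motif, 19.62% held ACGTG, and 32.39% held GCGTG. A match is a string of letters and not a measured binding site.

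Values below are log2 of the background-subtracted signal minus log2 of the 75th percentile of the same array, so 0 is the 75th percentile and 1 unit is a doubling. They compare arrays for 1 probe and do not rank genes against each other. A difference is Selenbp1-KO minus WT, with its standard error or 95% interval from limma, and a gene is called at an unadjusted p under 0.05, the threshold of the study's methods. Where a gene has several probes, the brightest over the 6 arrays stands for it.

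The targeted gene followed the labels. Selenbp1 read 7.02 to 7.07 on the WT arrays and 3.98 to 4.13 on the Selenbp1-KO arrays, a difference of −2.96 (standard error 0.098, limma adjusted p = 0.0021). The share of non-control spots well above background ran from 51.8% to 55.5%. WT replicates 2 and 3 share the first position number on the slide, and WT replicate 4 shares the other with all 3 Selenbp1-KO arrays. The methods state that the C57BL/6J mice were bought from a breeder and that the Selenbp1-KO line was generated separately. They name no littermates, so genotype and source cannot be told apart, and p-values measure the spread between these 6 samples. With 3 against 3, an exact permutation test cannot go below p = 0.1.

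Of the 10 genes, 1 was called. This was Epo, as higher in Selenbp1-KO, on a probe that was not well above background on any array and that held substitute values on all 3 WT arrays, so the call is no measurement of more Epo mRNA. Both HIF alpha subunits, Vegfa, the 3 prolyl hydroxylases, Vhl, Ankrd37, and Bnip3 did not pass the threshold. Of all 37028 genes tested, 8% were called, 6.87% as higher and 1.13% as lower in Selenbp1-KO, so 1 of 10 is near the background. By probe, 1 of 17 was called, against 7.98% of all probes (6.47% as higher). After Benjamini–Hochberg adjustment over all probes no member passed, as against 0.00357% of all probes (those of Selenbp1 and Selenbp2), and the lowest adjusted p of the 10 was 0.279 (limma). The median difference of the 10 genes was 0.05, that of genes well above background was 0.016, and that of all probes tested was 0.11. Among genes well above background on every array of a genotype, 5.79% were called, and 9 of the 10 genes were of this kind, of which 0 were called by limma at an unadjusted p under 0.05. With limma's trend and robust options, Hif1a alone among the 9 was called, in a setting that called 13.4% of all probes.

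**Figure D1:**
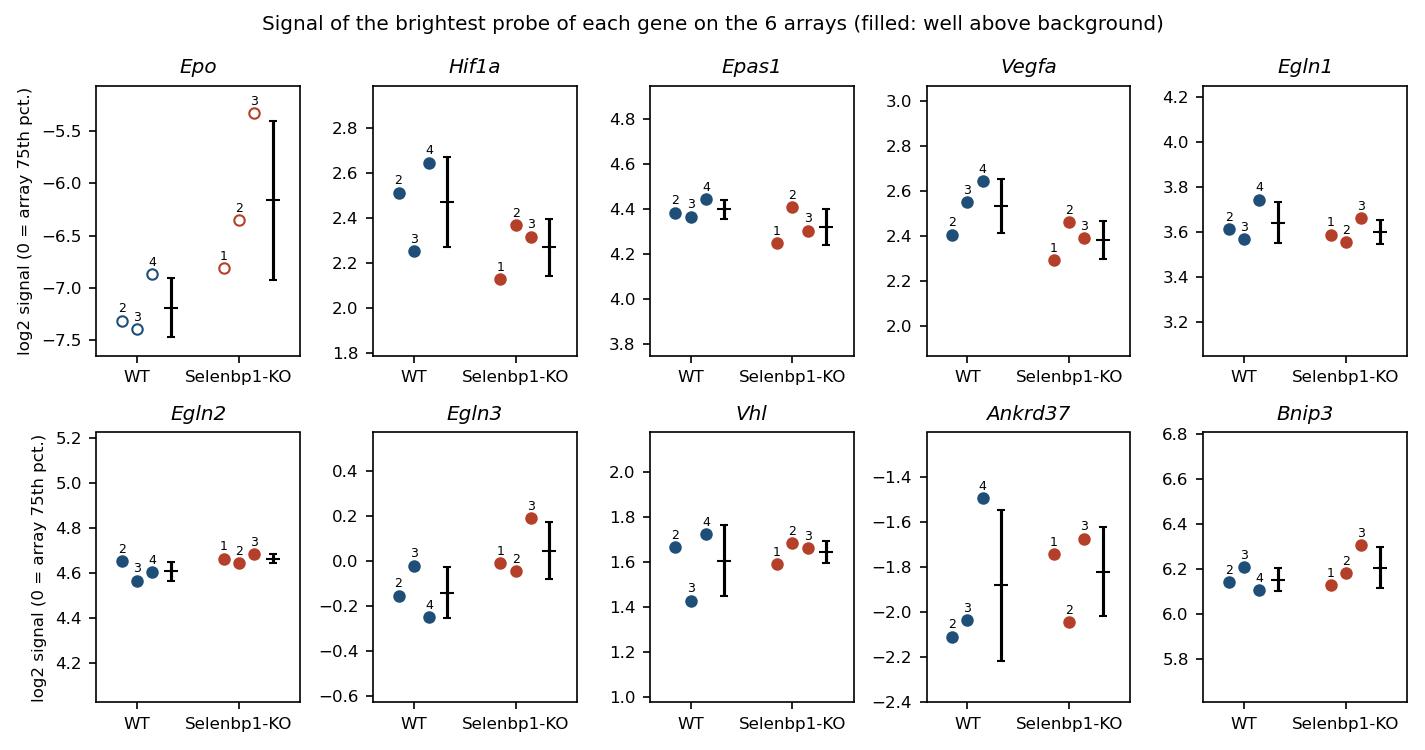
Log2 signal (y axis, 0 is the 75th percentile of the array) of the brightest probe of each of the 10 genes on each array. Points are single mice with their replicate number, filled where the spot was well above background, and the bar is the mean ± SD (n = 3). Epo has no filled point and is the panel in which the genotypes do not overlap.

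Epo, the hormone, was read by its first probe at −7.31, −7.39, and −6.87 in WT (replicates 2, 3, and 4, the order used throughout). The Selenbp1-KO mice (replicates 1, 2, and 3, likewise) gave −6.81, −6.35, and −5.33. All 3 Selenbp1-KO values lay above all 3 WT values, with replicate 4 of WT and replicate 1 of Selenbp1-KO nearest to each other and replicate 3 of Selenbp1-KO the highest. The groups did not overlap in 14.1% of all genes, and in 19% of the genes well above background, of which Epo is not 1. The fitted difference was 1.03 (standard error 0.39, 95% interval 0.07 to 1.98, unadjusted p = 0.0386 and adjusted p = 0.279 from limma). It describes the values in the files, which on 4 of the 6 arrays are not measured signals, and does not size a change of Epo mRNA.

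The Epo spot was not well above background on any of the 6 arrays, so no fold is given. The scanner software replaces the signal of a spot that is not significantly above its background by a small surrogate value. The first probe carried a surrogate on all 3 WT arrays and on replicate 1 of Selenbp1-KO. It was positive and significant against its background on the other 2 arrays, with processed signals of 5.84 in replicate 2 and 14.5 in replicate 3 of Selenbp1-KO. The scanner's own test of the pixels of a spot against its background gave 0.00187 and 9.5e-14 for them, which concerns single spots and not the genotypes. The lowest signal of any spot well above background was 17.7 to 20.0, depending on the array. Deviations of the size seen in replicate 2 also went below background: its background-subtracted signal was 5.16 on this probe and −6.22 on the second Epo probe, and that of WT replicate 4 on the first probe was −4.85. Replicate 3 of Selenbp1-KO gave 12.7, still below the level read as well above background.

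The surrogates were not the same in the genotypes. Their median before scaling was 3.93 to 3.99 in the WT arrays and 4.20 to 4.39 in the Selenbp1-KO arrays. They filled 28.4% to 32.0% of the spots of an array. The 75th percentile that scales each array was 711, 751, and 519 in WT and 566, 477, and 584 in Selenbp1-KO. A lower percentile raises every scaled surrogate, so the scaled differences that follow hold both the surrogates and this divisor. The 8905 probes with a surrogate on all 6 arrays had a median difference of 0.38, and 100% of them were higher in Selenbp1-KO, with 0% called. The 501 probes with a surrogate on all 3 WT arrays and on 1 Selenbp1-KO array, the pattern of Epo, had a median difference of 0.75. Of these 501, 81.2% were called and 12.2% had a difference at least as large as that of Epo. Of the 26818 probes well above background on all 6 arrays, 5.23% were called, with a median difference of 0.01.

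The second Epo probe had a surrogate on all 6 arrays. It read −7.41, −7.49, and −6.97 in WT and −6.96, −6.75, and −7.05 in Selenbp1-KO, so the genotypes overlapped. Its difference was 0.37 (−0.05 to 0.79, unadjusted p = 0.0756), close to the 0.38 of all probes of this kind. It gave no reading of Epo significantly above background in either genotype. The filter on detection let it pass only through replicate 2 of Selenbp1-KO, where its background-subtracted signal was negative, at −6.22. The scanner's test of that spot against its background gave 0.00019.

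**Figure D2:**
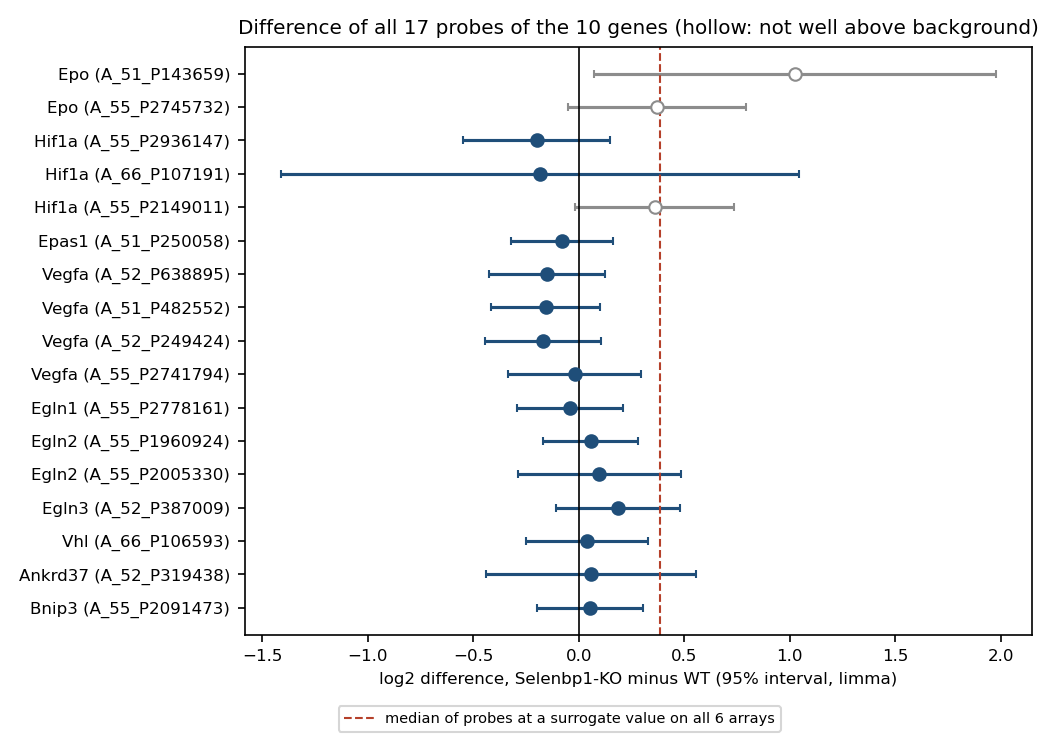
Difference Selenbp1-KO minus WT on the log2 scale (x axis) for each of the 17 probes (y axis), with 95% intervals from limma. Hollow points mark probes that no array read well above background, and the dashed line at 0.38 is the median of probes with a surrogate value on all 6 arrays. The interval of the first Epo probe, 0.07 to 1.98, is the only one that leaves out 0.

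The Epo difference kept its sign under all 17 alternative treatments of the data in which it could be fitted, from 0.40 to 1.51. Of the 501 probes with its surrogate pattern, 100% were higher in Selenbp1-KO, so the kept sign is no support for more Epo mRNA. Using no filter or keeping outlier spots left the difference at 1.03. It was called in 10 of the 17, and in those 10 the share of all probes or genes called ran from 5.76% to 32.9%. The mean over both Epo probes, counted among these 10, gave 0.70. It was not called with quantile normalization (0.78, unadjusted p = 0.145), in the authors' own value table (0.78), or with the methods' t-test run on the same values. Leaving out replicate 2 of WT gave 0.97, leaving out replicate 3 of WT gave 0.93, and leaving out replicate 2 of Selenbp1-KO gave 1.12, none of them called. Leaving out replicate 3 of Selenbp1-KO lowered it to 0.61. With the position number on the slide as a block, where replicate 4 is the one WT array beside the Selenbp1-KO arrays, it was 0.70 (unadjusted p = 0.275). The lowest limma adjusted p of the first probe over the alternatives was 0.113. The second probe, a surrogate on all 6 arrays, was called with median scaling (0.35, unadjusted p = 0.044), with the replicate block (0.55, unadjusted p = 0.0288), and without replicate 4 of WT (0.53, unadjusted p = 0.00923, limma adjusted p = 0.049). With quantile normalization its difference was 0.0029. Of all probes, 26.1% were called with median scaling, 32.9% with the replicate block, and 31.3% without replicate 4 of WT.

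**Figure D3:**
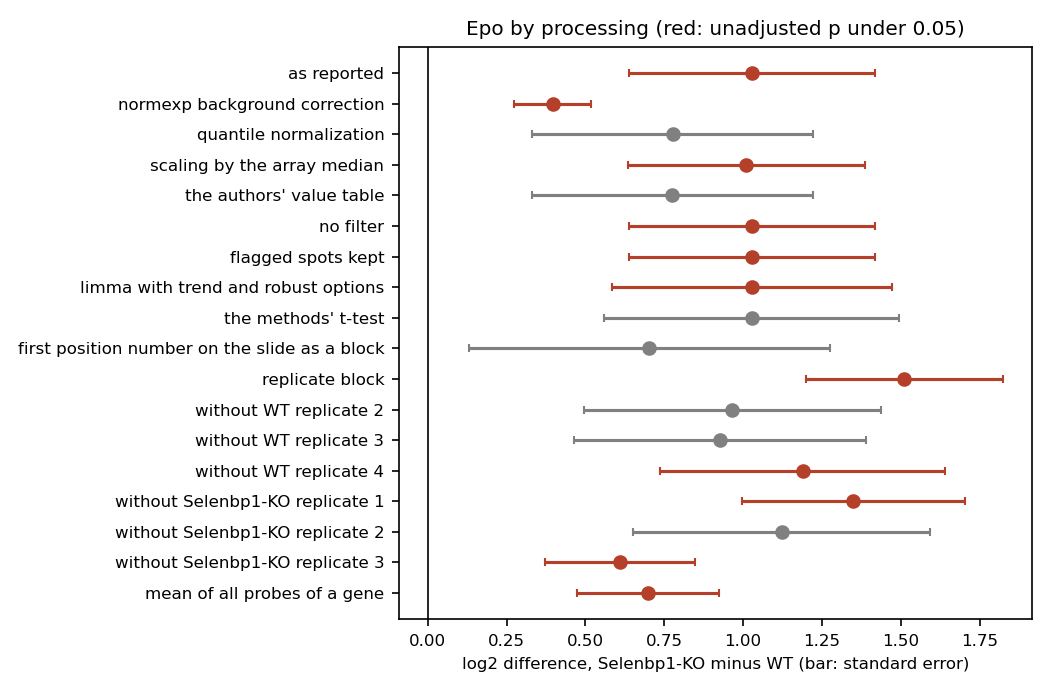
Log2 difference of the first Epo probe, Selenbp1-KO minus WT (x axis), as reported and under each alternative (y axis), with standard errors. Red points have an unadjusted p under 0.05. All points lie above 0, from 0.40 to 1.51, and those in gray were not called.

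Markers of interstitial fibroblasts, red blood cells, and macrophages were read on the same arrays. Of all genes well above background on every array of a genotype, 5.79% were called. In each of these marker lists the lowest limma adjusted p was 0.279, so no marker passed adjustment. Of 8 markers of interstitial fibroblasts, 5 were called higher in Selenbp1-KO (Nt5e, Col1a1, Col3a1, Dcn, and Lum), and all 8 were well above background. Their summed level, in multiples of the 75th percentile, was 24.8 to 31.7 in WT and 39.0 to 47.9 in Selenbp1-KO. Such a sum weighs bright probes most, here Dcn, and does not stand for each marker of its list. Nt5e, which marks the peritubular fibroblasts, differed by 0.34, and Pdgfrb, another marker of these cells, differed by 0.33 (unadjusted p = 0.0699). Pdgfra, another fibroblast receptor on the list, differed by 0.07 (unadjusted p = 0.575), and its groups overlapped. More cells of a type and more RNA per cell, or fewer and less, cannot be told apart in whole-kidney RNA. The part of the fibroblast markers in the Epo difference was not tested.

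Red blood cells carry globin mRNA while young. Of 7 markers on the array, 5 were called higher in Selenbp1-KO: Hbb-b1 (1.26), Hbb-bt (1.02), Alas2 (0.86), Hba-a1 (0.56), and Hba-a2 (0.53). Hba-a1 and Hba-a2 are near-identical, so their probes may read each other. The membrane protein Slc4a1 differed by 0.11 (unadjusted p = 0.371). The summed level, most of it from Hba-a1 and Hba-a2, was 541 to 711 in WT and 763 to 1141 in Selenbp1-KO. Of 5 macrophage markers, 3 were called higher (summed level 9.85 to 11.5 in WT and 11.7 to 12.7 in Selenbp1-KO).

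The lists of the kidney's own tubules and vessels gave other counts. None of 6 endothelial, 5 proximal tubule, 4 thick ascending limb and distal tubule, or 5 collecting duct markers was called by limma at an unadjusted p under 0.05. Each of these tubule and vessel markers was read well above background, so the tissue label held. Of 5 podocyte markers, 1 (Synpo) was called, as higher. None of 6 immediate early genes was called. The part of any of these lists in the values of the 10 genes was not tested.

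Hif1a, the HIF-1α subunit, was read by its transcript probe (NM_010431) at 2.51, 2.26, and 2.65 in WT and 2.13, 2.37, and 2.32 in Selenbp1-KO. Replicate 3 of WT lay between replicates 1 and 3 of Selenbp1-KO, so the groups overlapped. The difference was −0.20 (−0.55 to 0.15, unadjusted p = 0.209, limma adjusted p = 0.491), and its sign held in all 18 alternatives, from −0.38 to −0.01. The other 2 probes carry the accessions of cDNA clones. The probe of AK048798 lies on the strand opposite to Hif1a, was well above background on 3 WT and 2 Selenbp1-KO arrays, and differed by −0.18 with a wide interval (−1.41 to 1.05). The probe of AK017853 was not well above background on any array.

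Epas1, the HIF-2α subunit that drives Epo in the kidney, was 4.38, 4.36, and 4.44 in WT and 4.25, 4.41, and 4.30 in Selenbp1-KO. The WT values lay close together, and replicate 2 of Selenbp1-KO fell among them. The difference was −0.08 (−0.32 to 0.16, unadjusted p = 0.463). The interval leaves out a rise of more than 0.16 and a fall of more than 0.32.

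Egln1, the main oxygen sensor among the prolyl hydroxylases, was 3.61, 3.57, and 3.74 in WT and 3.59, 3.55, and 3.66 in Selenbp1-KO. The groups overlapped throughout, and the difference was −0.04 (−0.29 to 0.21). Without replicate 4 of WT it was 0.0097, so its direction rests on that array.

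Egln2, a prolyl hydroxylase that is not itself a classical HIF target, was 4.65, 4.57, and 4.61 in WT and 4.67, 4.65, and 4.68 in Selenbp1-KO. Only replicate 2 of WT reached the Selenbp1-KO values. The difference was 0.06 (−0.17 to 0.28), and it turned to −0.0096 with quantile normalization. By the brightest probe Egln2 had the smallest SD within genotypes of the 10 genes, 0.033, and 1.69% of genes well above background had a smaller one. Its second probe had an SD of 0.198 and differed by 0.10 (−0.29 to 0.49).

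Egln3, the prolyl hydroxylase most strongly induced by HIF, was −0.15, −0.02, and −0.25 in WT and −0.01, −0.04, and 0.19 in Selenbp1-KO. Replicate 3 of Selenbp1-KO was the highest array, and replicate 3 of WT lay between replicates 2 and 1 of Selenbp1-KO. The difference was 0.19 (−0.11 to 0.48, unadjusted p = 0.170), positive in all 18 alternatives, from 0.11 to 0.29.

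Vhl, which marks hydroxylated HIF alpha subunits for destruction, was 1.67, 1.43, and 1.72 in WT and 1.59, 1.68, and 1.66 in Selenbp1-KO. The Selenbp1-KO values all lay inside the WT range. The difference was 0.04 (−0.25 to 0.33), and it was −0.05 without replicate 3 of WT, the lowest array.

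Vegfa, the growth factor of blood vessels, was read by its brightest probe (A_52_P638895) at 2.41, 2.55, and 2.64 in WT and 2.29, 2.46, and 2.39 in Selenbp1-KO. The groups overlapped, with replicate 2 of WT below replicate 2 of Selenbp1-KO. The difference was −0.15 (−0.43 to 0.12, unadjusted p = 0.226). A second probe (A_51_P482552) was 1.26, 1.29, and 1.47 in WT and 1.14, 1.23, and 1.18 in Selenbp1-KO. On this probe the groups did not overlap, as in 13.3% of all probes, and the difference was −0.16 (−0.42 to 0.10, unadjusted p = 0.189). The other 2 probes (A_52_P249424 and A_55_P2741794) differed by −0.17 (−0.44 to 0.11) and −0.02 (−0.34 to 0.30), so all 4 were lower in Selenbp1-KO and none was called. The 4 probes read 1 gene in the same 6 mice and are not independent.

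Ankrd37, an ankyrin-repeat protein induced by HIF, was −2.11, −2.04, and −1.50 in WT and −1.74, −2.05, and −1.67 in Selenbp1-KO. Replicate 4 of WT was the highest array, and the other WT arrays were among the lowest. The difference was 0.06 (−0.44 to 0.56), and it was −0.06 without replicate 2 of WT, −0.02 without replicate 3 of WT, and −0.01 without replicate 3 of Selenbp1-KO. Its SD within genotypes was 0.276, against a median of 0.124 over genes well above background.

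Bnip3, a HIF target that acts in the removal of mitochondria, was 6.14, 6.21, and 6.11 in WT and 6.13, 6.18, and 6.31 in Selenbp1-KO. Replicate 3 of Selenbp1-KO was the highest array, and the other arrays were interleaved. The difference was 0.05 (−0.20 to 0.30), and it turned to −0.06 with quantile normalization and to −0.02 in the authors' value table. It was 0.0029 without replicate 3 of Selenbp1-KO, 0.092 without replicate 1 of Selenbp1-KO, 0.082 without replicate 3 of WT, and 0.031 without replicate 4 of WT, so single arrays set its size.

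For the 9 genes well above background the median absolute difference was 0.059, and it was 0.105 over all genes of that kind. Their 95% intervals reached at most 0.55 below and 0.56 above 0, so a doubling or halving lies outside every one of them. With 3 arrays a genotype smaller differences are bounded only by these intervals, and a p above the threshold does not show that the genotypes were alike.

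The arrays differed among themselves in a way the genotypes did not follow. Replicate 4 of WT was the highest of the 6 arrays for 6 of the 10 genes (Hif1a, Epas1, Vegfa, Egln1, Vhl, and Ankrd37) and the lowest for 2 (Egln3 and Bnip3). Replicate 3 of Selenbp1-KO was the highest for the other 4 (Epo, Egln2, Egln3, and Bnip3). Over the 6 arrays, Egln3 and Bnip3 varied together (Pearson r = 0.885), as did Hif1a and Epas1 (r = 0.845) and Epas1 and Vegfa (r = 0.840). Vegfa and Egln2 ran opposite (r = −0.782), as did Hif1a and Egln3 (r = −0.696). These are descriptions over 6 arrays that share a slide and a scaling, without a test. Egln3, with 1 motif match, and Bnip3, with 5, are among the promoters shown above.

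**Figure D4:**
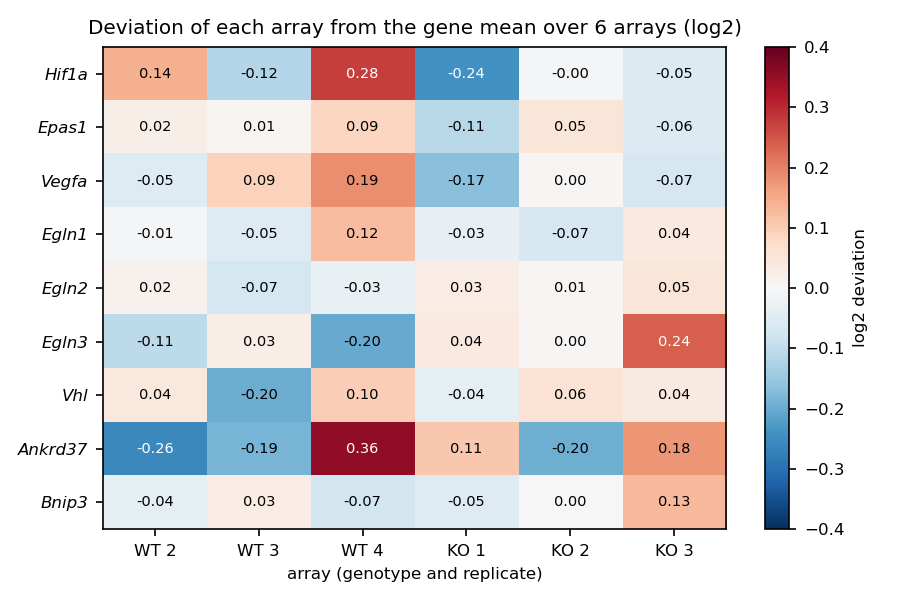
Deviation of each array (x axis) from the mean of the gene over the 6 arrays, in log2 units (color and number), for the 9 genes well above background (y axis). WT replicate 4 is high for Hif1a, Vegfa, and Ankrd37 and low for Egln3, and Selenbp1-KO replicate 3 is high for Egln3 and Bnip3.

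Against WT replicate 4 alone, the WT array that shares their position number, the Selenbp1-KO arrays were on average lower for Hif1a (−0.38), Ankrd37 (−0.33), Vegfa (−0.26), Egln1 (−0.14), Epas1 (−0.12), and Vhl (−0.08). They were higher for Epo (0.70), Egln3 (0.29), Bnip3 (0.10), and Egln2 (0.06). Relative to the values with all WT arrays, the sign turned for Vhl and Ankrd37. The other position number held WT arrays only and gives no comparison.

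Since Epo was not well above background on any array, the genes most like a member in pattern were sought for Vegfa. Of 18363 other genes well above background on all 6 arrays, the closest over the 6 arrays were CB182661 (r = 0.988), Pmaip1 (r = 0.987), a p53 target of cell death, and Gm14305 (r = 0.975). In all, 104 genes had r over 0.9.

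The wider pathway was read from 63 other genes in 5 lists, all of them tested and 59 of them well above background. Bhlhe40 was called as lower, and none was called as higher, so 1 of 63 (1.59%) was called. The share was 8% over all genes and 5.79% over genes well above background on every array of a genotype. The count depended on the processing and ran from 0 to 7 over the alternatives. The groups did not overlap for 8 of the 63 (12.7%), against 14.1% of all genes and 19% of the genes well above background. Of the 63, 34 were higher and 29 lower in Selenbp1-KO, and the median difference was 0.03, against 0.016 over genes well above background and 0.11 over all probes.

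Bhlhe40, a transcription repressor that HIF-1 induces and that also belongs to the circadian clock, was 1.102, 1.16, and 1.47 in WT. It was 0.98, 0.91, and 0.77 in Selenbp1-KO, below all WT arrays. The difference was −0.36 (−0.70 to −0.02, unadjusted p = 0.0426, limma adjusted p = 0.279). It was not called without replicate 3 or 4 of WT, or without any 1 of the Selenbp1-KO replicates, or with the methods' t-test or the replicate block.

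Of the 22 other HIF targets, 11 were higher and 11 lower, with a median of 0.00. Besides Bhlhe40, the lowest p was that of Loxl2, a lysyl oxidase that crosslinks collagen, with a difference of 0.56 (−0.05 to 1.18, unadjusted p = 0.0672). Its WT arrays ranged from −1.37 to −0.42 and its Selenbp1-KO arrays from −0.46 to −0.14. Loxl2 was called with normexp correction, with median scaling, with the replicate block, and without replicate 4 of WT. In these settings 11.3%, 26.1%, 32.9%, and 31.3% of all probes were called, in the same order, most of them as higher.

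Of the 10 other genes of oxygen sensing, 6 were higher and 4 lower (median 0.10), and 0 were called by limma. The lowest p belonged to Hif1an, the asparaginyl hydroxylase that limits HIF transactivation, with 0.18 (−0.07 to 0.43), and to Elob, a partner of VHL in its ligase, with 0.15 (−0.08 to 0.38). On both, the 3 Selenbp1-KO arrays lay above the 3 WT arrays. Elob was called with the methods' t-test and with limma's trend and robust options. Arnt, the beta subunit that pairs with both HIF alpha subunits, went the other way, with −0.14 (unadjusted p = 0.191) and no overlap of the groups. It was called as lower with quantile normalization, in the authors' value table, and with the methods' t-test.

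Of the 14 glycolytic targets, through which HIF shifts cells to anaerobic use of glucose, 9 were higher and 5 lower (median 0.04), and 0 were called. Pfkfb4 differed by 0.18 (−0.09 to 0.45) and Gapdh by 0.17 (−0.19 to 0.54). Slc2a1, the glucose transporter, differed by 0.09, and Pdk1, which keeps pyruvate out of mitochondria, by −0.05. With quantile normalization 3 genes of this list (Aldoa, Pgk1, and Ldha) were called. In that setting 7 of the 63 pathway genes were called, only 1 of them as higher, and 8.37% of all probes were called.

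Of the 9 other VEGF ligands and receptors, 6 were higher and 3 lower (median 0.11), and 0 were called. Vegfc and Vegfd, ligands of lymphatic growth, differed by 0.14 (−0.17 to 0.45) and 0.12 (−0.16 to 0.39). The endothelial receptors Flt1 and Kdr, which bind Vegfa, differed by −0.04 and 0.04.

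Of the 8 genes of Epo receptor signaling, 2 were higher and 6 lower (median −0.13), and 0 were called. Epor, the receptor, was 1.23, 0.69, and 0.9998 in WT and 0.15, 1.09, and 0.15 in Selenbp1-KO. Replicate 2 of Selenbp1-KO lay among the WT arrays and the other 2 below them, and the difference was −0.51 (−1.24 to 0.22, unadjusted p = 0.139). Epor was called without replicate 2 of Selenbp1-KO. Jak2, the kinase bound to the receptor, had the lowest p of the list, with −0.25 (−0.53 to 0.03, unadjusted p = 0.070), and its groups did not overlap. Stat5a, the transcription factor that the kinase activates, differed by 0.20 (−0.05 to 0.44, unadjusted p = 0.100), also without overlap. Jak2 and Stat5a were both called with quantile normalization, in the authors' value table, with the methods' t-test, and when limma's trend and robust options were used. Both were also called when dim probes were left out before the fit. Jak2 was also called without replicate 4 of WT.

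**Figure D5:**
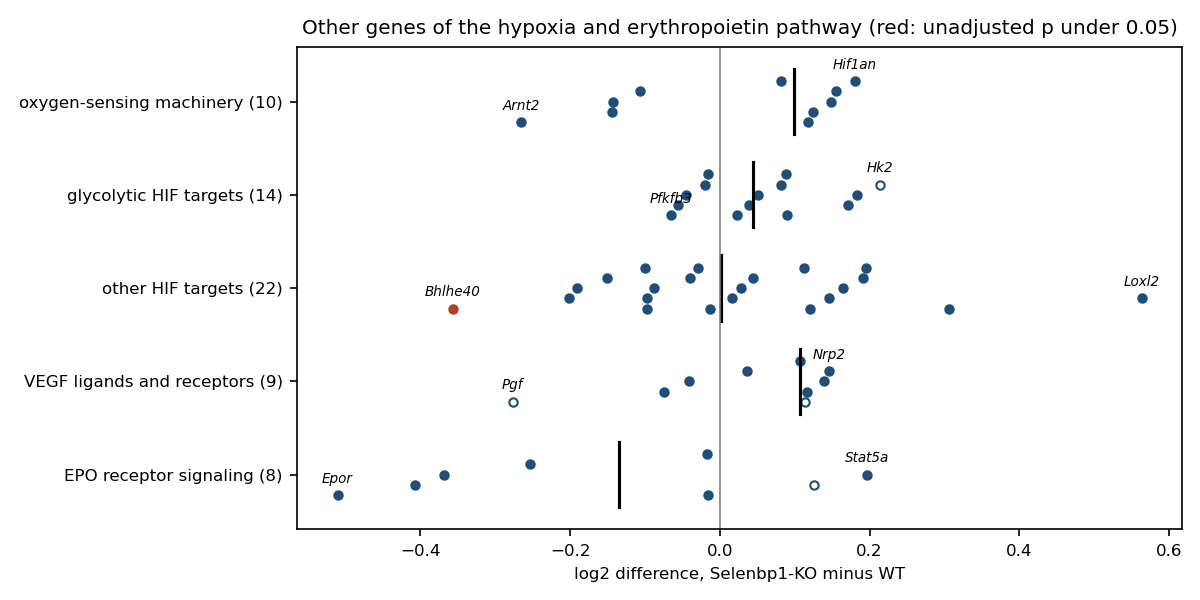
Log2 difference, Selenbp1-KO minus WT (x axis), of the 63 other pathway genes in 5 lists (y axis, number of genes in brackets). Points are genes, hollow where not well above background on every array of a genotype, bars are list medians, and the lowest and highest gene of each list are named. Bhlhe40, in red at −0.36, is the only gene with an unadjusted p under 0.05.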

How the data were processed

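RNA of 3 WT and 3 Selenbp1-KO kidneys was measured on 6 one-color arrays, all on 1 slide. The authors deposited Feature Extraction output for each array (version 10.7.1.1 per the file headers, 9.5.1.1 per the submitters' processing notes), with a linear intensity per spot, background-subtracted and with surrogates for dim spots, not scaled between arrays. Each spot also has a detection p-value, computed before the authors deposited the files, and deposited 0 or 1 marks (other values) for outliers and signal well above background. The authors' table of 1 intensity per probe orders probes almost exactly as each array's scanner signals do. Probe coordinates are the deposited ones (mm9), and promoters are from RefSeq on GRCm38.p6.

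Here each log2 intensity was set relative to the 75th percentile of its array, marked outlier spots were left out, and a probe's spots were averaged. A probe was tested if its detection p was under 0.05 on 1 or more arrays, which left 56097 and dropped 508. This p can be small for a spot above or below its background. Genotypes were compared with limma (version 3.58.1, two-sided, R 4.3.3, statmod 1.5.0) at an unadjusted p under 0.05, the methods' threshold, with Benjamini–Hochberg adjustment over all probes. Probe signal over background and the number of arrays limit the precision. The genes named are all 10 members, Selenbp1, the called genes of each pathway list or the lowest p up to 2, and genes of general interest, the last named after their values were seen (Epor, Arnt, Slc2a1, Pdk1, Flt1, Kdr, and the genes called under an alternative). The 3 genes most correlated with Epo, or with Vegfa where Epo is dim, complete the rule. Markers are given as counts of lists with examples. The 10 members and all lists were chosen with earlier results of these data known. The fit was tested on simulated data.

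Alternatives were normexp correction (offset 50), quantile normalization, scaling by the array median, the authors' value table, a filter on probes well above background, no filter, outlier spots kept, trend and robust options in limma, the methods' t-test, a block for the position number or for the replicate number, each array left out in turn, and a gene's mean over its probes.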

Additional observations from a re-analysis of the deposited data

How the results depend on the processing

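The 3 counts that answer the comparison moved most. With main counts of 1 called member, 1 called pathway gene, and 4479 called probes, leaving out 1 array gave 0 to 1, 0 to 3, and 2024 to 17585. The highest of these counts of probes came without replicate 4 of WT, and the lowest without replicate 2 of WT. No member was called with quantile normalization, the authors' value table, the filter on probes well above background (which leaves Epo out), the methods' t-test, or the position block, and 2 were with limma's trend and robust options. Called pathway genes numbered 7 with quantile normalization, 6 in the authors' table and with trend and robust options, 5 with the t-test, 4 with the position block, 3 with normexp correction, the well-above filter, and the mean of all probes, and 2 with median scaling. Called probes numbered 14616 with median scaling (26.1% of those tested), 2841 with the filter (9.96%), and 7537 with trend and robust options (13.4%). The share was 7.98% as reported, 8.37% with quantile normalization, 8.36% in the authors' table, and 7.09% with the t-test. It was 6.51% with the position block and 11.3% with normexp correction. Of called probes, 81.09% were higher in Selenbp1-KO, against 53.83% with quantile normalization, 55.09% in the authors' table, 95.42% with normexp, and 93.6% with median scaling. The median difference of all probes was 0.11, and 0.00 with quantile normalization.

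The replicate numbers are shared by a pair of mice in each genotype only (2 and 3), and same-numbered arrays correlated at r = 0.164 and 0.211 over 26814 probes, while WT replicate 3 correlated at 0.245 with Selenbp1-KO replicate 1, so the numbers do not show a pairing. With the replicate block, 18430 probes and 4 pathway genes were called, Epo differed by 1.51 and stayed called, and Egln1 by 0.016.

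Direction reversed for Egln2 with quantile normalization (−0.0096), for Bnip3 with quantile normalization (−0.056) and in the authors' table (−0.021), and with the position block for Vhl (−0.078) and Ankrd37 (−0.33). Leaving out 1 array gave −0.078 to 0.0097 for Egln1, which reversed without replicate 4 of WT, and −0.050 to 0.098 for Vhl, which reversed without replicate 3 of WT. It gave −0.056 to 0.25 for Ankrd37, which reversed without replicate 2 or 3 of WT or replicate 3 of Selenbp1-KO. Epo was 0.78 with quantile normalization and in the authors' table and 1.03 with the t-test, none called, and Hif1a was −0.20 and called with trend and robust options. The cause of these shifts was not tested. With 3 arrays a genotype and an Epo signal not well above background on any array, changes of Epo mRNA cannot be sized here.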
